A study of Arabidopsis thaliana with 12 samples.

Results

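Flowers of an XBAT31 mutant and of wild-type (WT) Arabidopsis thaliana were compared after 3 hours at 38 °C. The 6 libraries of this comparison, 3 of the mutant and 3 of WT, were chosen by the genotype and temperature in their labels, out of 12 libraries in the series, and every gene of the deposited table was considered. The other 6 libraries came from the same 2 genotypes kept at 22 °C, again 3 of each, and served to ask whether a difference was also there without heat. The mutant carries a changed XBAT31 gene, but which allele it carries, how the gene is disrupted, the accession background and the age of the plants are not given in the sources used here. Each library was made from polyadenylated RNA of 9 pooled flowers covering developmental stages 1 to 12, so it averages over many organs and cell types. In such bulk samples, fewer cells of a type and less RNA per cell cannot be told apart.

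XBAT31 encodes an E3 ubiquitin ligase that joins ankyrin repeats to a RING domain and tags other proteins for removal. In seedlings it is known to act on ELF3, a clock protein through which warmth speeds growth. Plants meet acute heat with heat shock factors (HSFs), transcription factors that bind heat shock elements in promoters and switch on chaperones, which keep other proteins folded. Class A HSFs activate transcription, and class B HSFs lack the activation domain of class A and mostly repress.

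Levels are given below as FPKM, fragments scaled by the authors to transcript length and library size, and they are always listed for mutant replicates 1, 2 and 3 and then for WT replicates 1, 2 and 3. Fold changes were fitted with edgeR on the deposited counts, as mutant over WT on the log2 scale with a standard error (SE), and genes with an adjusted p below 0.05 were taken as changed. "Passed" below means this threshold, and "rose" and "fell" describe the mutant relative to WT for genes that met it. The libraries held 44983198, 53249866 and 52031441 counts in the mutant and 58279959, 63088433 and 53485825 counts in WT. Mutant replicate 1 and WT replicate 2 stood apart within their groups on the second principal component, which held 27.3% of the variance. Scores there were 29.7, -66.3 and -28.7 in the mutant and 10.8, 62.9 and -8.4 in WT, so mutant replicate 2 was the most extreme. On the first component (32.0%) they were 67.6, 2.0 and 42.9 in the mutant and -56.1, -7.2 and -49.2 in WT. The replicates 2 of both genotypes thus lay close together on it. The labels call the replicates biological and do not say whether they were grown separately, so the p-values rest on the spread among these libraries, which may be technical. The flower label was borne out by the petal and stamen identity gene AP3, at 92.8, 85.1 and 108 FPKM in the mutant and 91.8, 86.7 and 94.2 FPKM in WT.

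XBAT31 itself (AT2G28840, chromosome 2, 12378337 to 12380742, plus strand in TAIR10) was lower but still present as transcript in the mutant. The count covers the whole gene, and where the mutation lies is not known here. It stood at 54.2, 47.5 and 49.4 FPKM in mutant flowers, against 109, 110 and 107 FPKM in WT flowers at 38 °C. The mean was 50.4 ± 3.45 FPKM in the mutant and 109 ± 1.46 FPKM in WT (SD, n = 3 each), a log2 fold change of -1.15 ± 0.08 (SE; adjusted p = 6.98e-05). Every mutant library lay below every WT library, and 45.0% of the WT level remained. An exact two-sided permutation test over the 6 libraries gave p = 0.1, the smallest that 3 against 3 allows. At 22 °C the mutant held 54.3, 55.7 and 45.3 FPKM, against 95.3, 96.8 and 96.6 FPKM in WT (log2 -0.93 ± 0.08, adjusted p = 0.000861), and the difference between temperatures did not pass. ELF3, the known partner, stood at 26.2, 30.3 and 29.2 FPKM in the mutant and 31.7, 29.4 and 30.4 FPKM in WT, and the groups overlapped (log2 -0.13 ± 0.08, adjusted p = 0.359). None of the 4 other XBAT genes on the family's list passed in edgeR.

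At 38 °C, 2269 of 23585 tested genes differed between mutant and WT, which is 9.62% of those tested. Of these, 1028 rose (4.36% of tested genes) and 1241 fell (5.26%). The counts given below for gene lists are to be read against these shares. The lists were chosen with earlier results of these data known, so an excess over these shares is not independent support. Changes were mostly modest, with a median absolute log2 change of 0.55 among the genes that passed, and 405 genes changed at least 2-fold, 193 up and 212 down. Large changes leaned upward, since 75 genes rose at least 4-fold and 37 fell that far. The mutant and WT libraries did not overlap in 2259 of the genes that passed, whereas 29.7% of all tested genes had groups that did not overlap. The share of rises among the changes was 45.3%, and it was 55.9% and 54.3% with limma on FPKM at the 2 pseudocounts tried and 19.6% when libraries were scaled to reference genes. In a fit of only the 6 libraries at 38 °C, 1825 genes passed (794 up, 1031 down). Without WT replicate 1 only 1016 genes passed (427 up, 589 down), and without mutant replicate 3 only 1155 passed (490 up, 665 down). Leaving out WT replicate 3 or mutant replicate 1 left 652 and 675 rises, and leaving out mutant replicate 2 left 820 falls.

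**Figure D1:**
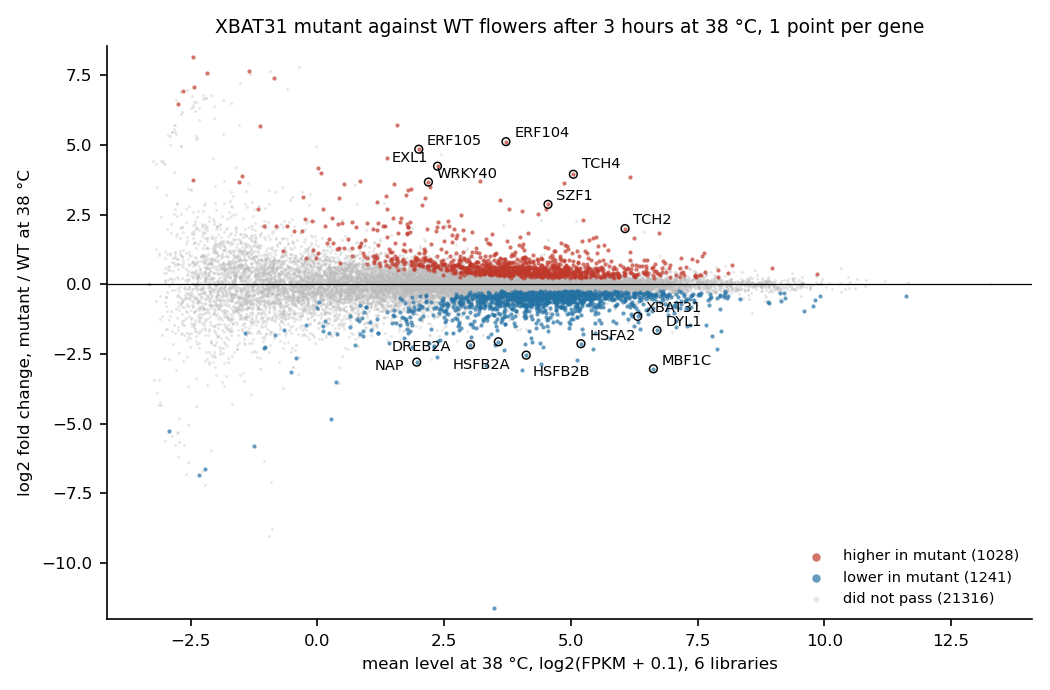
Each point is a tested gene, with its mean level over the 6 libraries at 38 °C on the x axis, as log2(FPKM + 0.1), and its log2 fold change, mutant over WT, on the y axis. Red and blue points are the 1028 genes that rose and the 1241 that fell, and labelled genes are circled. ERF104 (5.12) and TCH4 (3.95) lie among the labelled rises, and MBF1C (-3.03) lies lowest of the labelled falls.

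The class A factor HSFA2 and 3 of 6 class B and C factors fell in heated mutant flowers. HSFB2B (AT4G11660), a class B factor, stood at 5.75, 4.90 and 4.98 FPKM in the mutant, against 31, 31.3 and 25.9 FPKM in WT. That is 5.81-fold lower (log2 -2.54 ± 0.13, adjusted p = 5.47e-06), with little spread in either genotype. HSFB2A (AT5G62020), its closest relative, stood at 3.85, 5.93 and 4.14 FPKM in the mutant, against 20, 18.5 and 18.2 FPKM in WT, and fell 4.17-fold (log2 -2.06 ± 0.17, adjusted p = 0.000116). HSFA2 (AT2G26150), the heat-induced class A factor that prolongs the expression of chaperone genes, stood at 16.2, 13.9 and 11.7 FPKM in the mutant, against 63.5, 71.0 and 43.1 FPKM in WT (log2 -2.13 ± 0.21, adjusted p = 0.000268). The lowest WT library was thus far above the highest mutant library.

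The class A factors did not move as a block. HSFA8 rose, with 16.3, 19.0 and 20.9 FPKM in the mutant and 9.35, 7.83 and 9.97 FPKM in WT (log2 1.01 ± 0.14, adjusted p = 0.00157). Of 13 class A factors tested, 3 rose and only HSFA2 fell, with a median log2 change of -0.26 where the median over all tested genes was -0.00. HSFA8 was the 1 rise left when WT replicate 1 or 2 or mutant replicate 2 or 3 was left out, and likewise with scaling on reference genes. HSFA7B, at 0.418, 0.354 and 0.334 FPKM in the mutant and 3.21, 2.75 and 0.717 FPKM in WT, did not pass (adjusted p = 0.0757). Of 6 class B and C factors, 3 fell and none rose.

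The stretches before the start of 3 of the genes that fell are shown here because their letters differ in the heat shock element, the site that HSFs are known to bind. Each runs 5′ to 3′ on the gene's own strand up to the base before the start given by RefSeq for TAIR10.1, which lies upstream of the deposited gene start for HSFA2 and HSFB2B. Capitals mark the heat shock element cores GAANNTTC and TTCNNGAA and the abscisic acid element core ACGTG or its longer form CACGTG in HSFA2 and DREB2A, and the W-box core TTGAC in HSFB2B, searched on both strands. The W-box core was marked only in HSFB2B, and it also occurs, unmarked, on the other strand of the HSFA2 stretch. The HSFA2 stretch is chr2:11135466-11135623, cut where a neighbouring gene's exon ends, that of DREB2A is chr5:1601955-1602204 and that of HSFB2B is chr4:7042104-7042353, all on the plus strand.
HSFA2: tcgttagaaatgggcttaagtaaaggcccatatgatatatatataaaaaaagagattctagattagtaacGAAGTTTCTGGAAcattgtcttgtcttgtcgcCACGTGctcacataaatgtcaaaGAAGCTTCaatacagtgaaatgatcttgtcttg
DREB2A: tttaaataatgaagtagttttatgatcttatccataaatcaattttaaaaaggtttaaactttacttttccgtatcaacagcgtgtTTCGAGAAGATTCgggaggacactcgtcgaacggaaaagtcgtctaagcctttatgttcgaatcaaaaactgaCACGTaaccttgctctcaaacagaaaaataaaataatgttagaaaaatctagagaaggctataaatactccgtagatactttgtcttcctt
HSFB2B: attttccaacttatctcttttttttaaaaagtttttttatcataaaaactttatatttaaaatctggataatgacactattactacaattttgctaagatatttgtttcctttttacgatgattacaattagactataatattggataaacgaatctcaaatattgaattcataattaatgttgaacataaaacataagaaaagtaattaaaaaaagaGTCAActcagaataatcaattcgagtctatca
HSFA2 has GAANNTTC at 88 to 81 and at 33 to 26 bases before the start and an overlapping TTCNNGAA at 83 to 76, with CACGTG at 56 to 51. DREB2A has both forms overlapping at 164 to 152 bases before the start. Neither form occurs in the HSFB2B window, which says only that these letters are not in these 250 bases.

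Many chaperones fell. Of 35 large chaperones and co-chaperones, 21 fell and none rose, where 5.26% of all tested genes fell, and the median log2 change was -0.41. HSP101, the disaggregase that rescues clumped proteins, stood at 21.9, 18.8 and 16.0 FPKM in the mutant, against 60.6, 56.1 and 50.2 FPKM in WT (log2 -1.60 ± 0.12, adjusted p = 7.53e-05). BAG6, a calmodulin-binding co-chaperone, stood at 12.7, 11.9 and 10.1 FPKM in the mutant, against 36.6, 32.4 and 27.8 FPKM in WT (log2 -1.52 ± 0.14, adjusted p = 0.000161). Both thus kept about as much of the WT level, 33.0% and 34.9%. HSA32, which with HSP101 extends acquired heat tolerance, held 50.1, 42.5 and 39.8 FPKM in the mutant and 90.1, 86.7 and 81.8 FPKM in WT (log2 -1.01 ± 0.12, adjusted p = 0.000556).

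The falls reached the HSP70 and HSP90 machinery but were smaller there. HSP90.1, the heat-induced cytosolic HSP90, held 129, 114 and 91.1 FPKM in the mutant and 211, 205 and 175 FPKM in WT (log2 -0.86 ± 0.15, adjusted p = 0.00444). HSP90.2, a constitutive cytosolic HSP90, fell by 0.52 on the log2 scale. FES1A, a nucleotide exchange factor of HSP70, fell by 0.88, the co-chaperone HOP3, which links HSP70 to HSP90, by 0.75, the immunophilin ROF2 by 0.88 and the chloroplast disaggregase CLPB3 by 0.61. HSP70T-2, a shortened HSP70 relative outside the list, fell further, with 7.78, 7.66 and 6.78 FPKM in the mutant and 32.6, 30.4 and 27.5 FPKM in WT (log2 -2.07 ± 0.11, adjusted p = 5.47e-06). J11, a small chloroplast J-domain protein, held 6.37, 9.88 and 7.96 FPKM in the mutant and 40.7, 26.8 and 33.3 FPKM in WT (log2 -2.09 ± 0.30, adjusted p = 0.00175). Without mutant replicate 3, 12 of the 35 chaperones on the list fell, and without WT replicate 1, 14 fell.

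Small heat shock proteins, which hold unfolding proteins until larger chaperones act, pointed the same way, with 16 of 17 members on the negative side. Of the 17, 7 fell and none rose, and the median log2 change was -1.02. AT5G37670 held 5.08, 8.85 and 5.34 FPKM in the mutant and 30.4, 26.9 and 25.3 FPKM in WT (log2 -2.13 ± 0.34, adjusted p = 0.00311). AT1G07400 held 75.8, 87.4 and 51.6 FPKM in the mutant and 231, 196 and 172 FPKM in WT (log2 -1.52 ± 0.21, adjusted p = 0.00147). AT5G51440 held 73.5, 67.8 and 60.3 FPKM in the mutant and 138, 137 and 105 FPKM in WT (log2 -0.96 ± 0.15, adjusted p = 0.00265). All 3 kept non-overlapping groups. HSP17.4 did not pass although its groups did not overlap, at 132, 131 and 105 FPKM in the mutant and 301, 213 and 213 FPKM in WT (adjusted p = 0.0564). Without WT replicate 1 or mutant replicate 3, 4 small heat shock proteins fell, and without mutant replicate 1 and WT replicate 2 together 3 fell. Limma on FPKM called 12 lower and 1 higher with a pseudocount of 1, and 5 lower and 1 higher with 0.1. Close copies of these genes can share reads.

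Some regulators tied to heat fell as well. MBF1C, a coactivator needed for basal thermotolerance, had one of the deepest falls, with 18.7, 32.2 and 15.3 FPKM in the mutant and 245, 162 and 122 FPKM in WT (log2 -3.03 ± 0.32, adjusted p = 0.00034). DREB2A, an activator of drought and heat genes that is itself controlled by ubiquitin-dependent degradation, held 2.45, 3.95 and 2.49 FPKM in the mutant and 16.2, 11.4 and 11.6 FPKM in WT (log2 -2.17 ± 0.22, adjusted p = 0.000333). GOLS1, which makes galactinol for protective sugars, held 27.6, 25.9 and 28.8 FPKM in the mutant and 85.8, 54.7 and 66.6 FPKM in WT (log2 -1.37 ± 0.21, adjusted p = 0.00234). Of 17 heat-linked regulators and antioxidant enzymes 4 fell and none rose, and their median log2 change was -0.07, so most of the list did not pass. The antioxidant enzyme APX2, at 10.2, 9.06 and 6.95 FPKM in the mutant and 29.9, 22.8 and 23.9 FPKM in WT, did not pass (adjusted p = 0.0631).

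In the endoplasmic reticulum (ER), both stress sensors named below fell, and most folding genes did not pass. BZIP28, a membrane-bound sensor, held 22.5, 19.8 and 17.9 FPKM in the mutant and 34.6, 33.2 and 32.4 FPKM in WT (log2 -0.78 ± 0.08, adjusted p = 0.00034). IRE1A, the kinase and nuclease sensor, held 13.4, 13.5 and 13.2 FPKM in the mutant and 18.9, 15.5 and 18.3 FPKM in WT (log2 -0.43 ± 0.08, adjusted p = 0.00585). ERDJ3A, a J-domain partner of the ER chaperone BiP, held 12.4, 12.7 and 9.04 FPKM in the mutant and 27.7, 24.5 and 26.8 FPKM in WT (log2 -1.25 ± 0.14, adjusted p = 0.000418). Of 23 genes for ER folding 4 fell and none rose, and the list's median of 0.08 turned to -0.02 with scaling on reference genes.

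**Figure D2:**
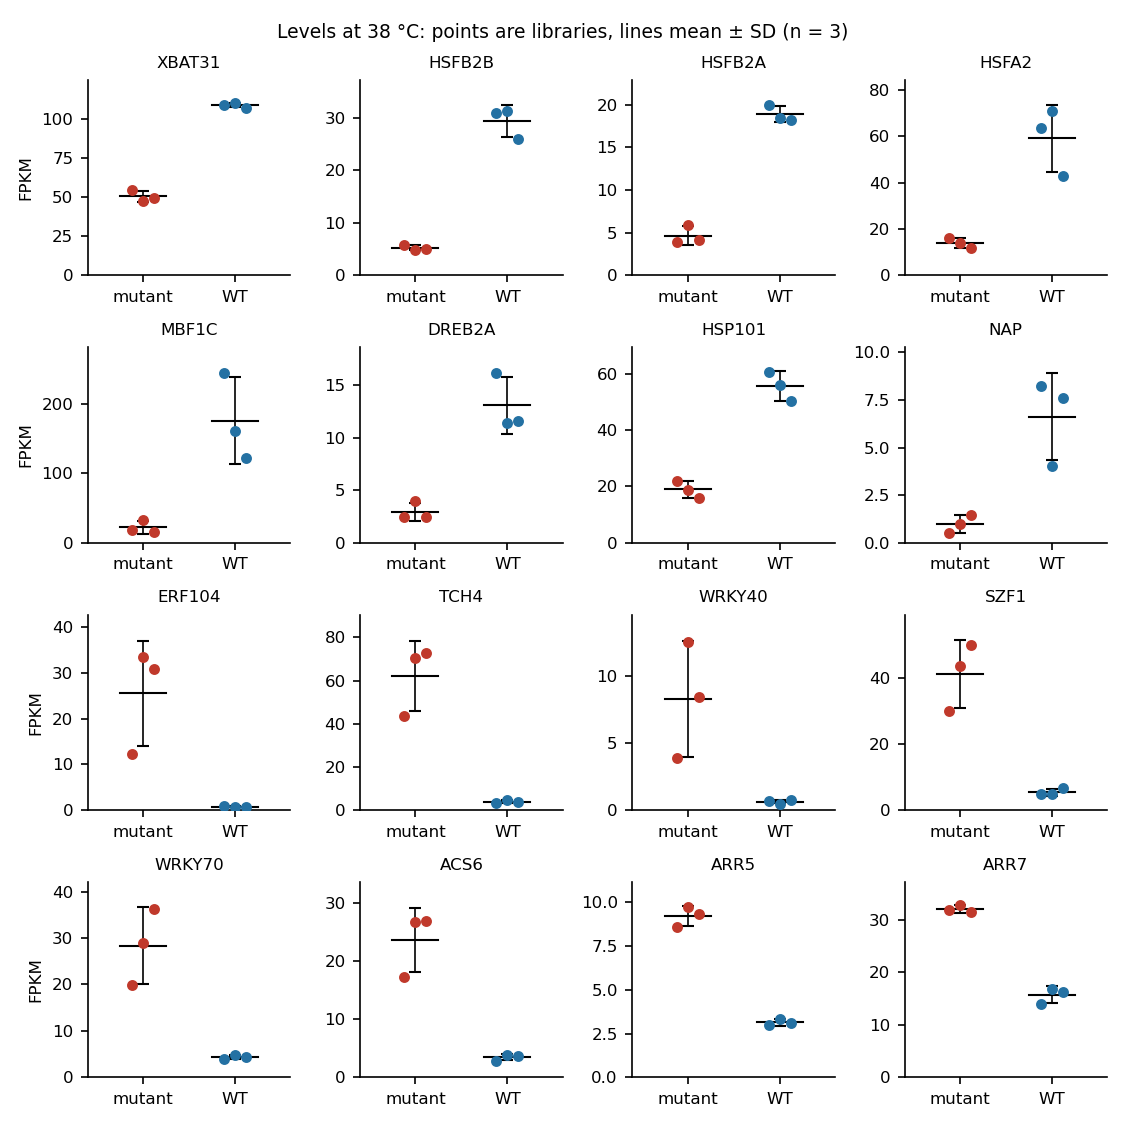
Levels in FPKM (y axes from 0, scaled per gene) of 16 genes in mutant and WT flowers at 38 °C; points are libraries, the horizontal line is the mean and the bar 1 SD (n = 3 each). The groups do not overlap in any panel, as in 2259 of the 2269 genes that passed at 38 °C. XBAT31 to NAP are lower in the mutant, and ERF104 to ARR7 are higher.

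Ethylene response factors (ERFs) had large rises. They are DNA-binding proteins whose genes react quickly to wounding, pathogens and ethylene. ERF104 (AT5G61600), a substrate of the stress kinase MPK6, stood at 12.3, 33.4 and 30.8 FPKM in the mutant, against 0.779, 0.577 and 0.767 FPKM in WT, a 34.8-fold rise (log2 5.12 ± 0.43, adjusted p = 0.000117). Mutant replicate 1 was the lowest of its group and still far above every WT library. ERF105 held 3.23, 7.98 and 11.5 FPKM in the mutant and 0.123, 0.344 and 0.246 FPKM in WT (log2 4.85 ± 0.56, adjusted p = 0.00053). ERF13 held 4.87, 6.81 and 7.63 FPKM in the mutant and 0.473, 0.616 and 0.633 FPKM in WT (log2 3.41 ± 0.29, adjusted p = 0.000117). Of 13 ethylene response and CBF factors 7 rose and none fell, where 4.36% of all tested genes rose, and this count stayed at 7 with each library left out in turn. The others that rose were ERF6 (log2 3.19), ERF1A (1.98), ERF2 (1.95) and ERF5 (1.71), and the list's median was 1.95. ERF2 and ERF5 are neighbours on chromosome 5.

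Some touch and calcium sensor genes rose as well, 4 of 11 tested. TCH4, a touch-induced enzyme that remodels xyloglucan in cell walls, held 43.6, 70.5 and 72.8 FPKM in the mutant and 3.25, 4.52 and 3.94 FPKM in WT (log2 3.95 ± 0.40, adjusted p = 0.000318). TCH2, a calmodulin-like calcium sensor, held 90.8, 119 and 115 FPKM in the mutant and 22.8, 25.1 and 30.7 FPKM in WT (log2 2.00 ± 0.16, adjusted p = 7.53e-05). AT4G27280, annotated as a calcium-binding EF-hand protein, held 91.8, 154 and 154 FPKM in the mutant and 8.00, 9.57 and 9.49 FPKM in WT (log2 3.85 ± 0.33, adjusted p = 0.000117). These 3 reached the higher levels among the large rises. None of the 11 fell, and without WT replicate 1 the rises were 2.

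Among WRKY factors, which bind W-boxes in defence genes, 7 of 21 rose and none fell, with a median log2 change of 0.48. WRKY70, a factor between salicylic acid and jasmonate signalling, held 19.9, 28.9 and 36.3 FPKM in the mutant and 4.02, 4.76 and 4.49 FPKM in WT (log2 2.64 ± 0.21, adjusted p = 8.21e-05). WRKY40 held 3.92, 12.6 and 8.50 FPKM in the mutant and 0.661, 0.487 and 0.746 FPKM in WT (log2 3.67 ± 0.64, adjusted p = 0.00494), and its partner WRKY18 rose by 1.84 on the log2 scale. WRKY33 (2.17), WRKY46 (2.37) and WRKY11 (0.49) also rose. Zinc finger regulators were mixed, with 5 of 19 up and 2 down. SZF1, a tandem CCCH protein induced by salt and chitin, held 30.0, 43.6 and 50.2 FPKM in the mutant and 4.82, 4.91 and 6.70 FPKM in WT (log2 2.87 ± 0.22, adjusted p = 7.53e-05), and its relative CZF1 (1.32) and the repressor ZAT10 (3.11) rose too. OZF2, another tandem CCCH protein, fell, with 12.4, 11.6 and 12.0 FPKM in the mutant and 31, 26.9 and 27.8 FPKM in WT (log2 -1.29 ± 0.15, adjusted p = 0.00053), as did OZF1 (-0.97).

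Of 21 genes known to answer elicitors early, 10 rose and none fell, with a median log2 change of 1.14. MPK3, a stress kinase, held 17.3, 26.4 and 30.0 FPKM in the mutant and 8.42, 6.51 and 7.02 FPKM in WT (log2 1.71 ± 0.18, adjusted p = 0.00034). AP2C1, a phosphatase that acts on such kinases, rose by 1.06 and the membrane protein NHL3 by 2.30 on the log2 scale. SIB1 (2.83), which binds WRKY33, BAP1 (3.10), a C2-domain protein that restrains cell death, and SYP121 (0.49), a syntaxin of secretion, rose as well. CAF1a, a subunit of the complex that shortens poly(A) tails, held 8.31, 24.4 and 18.2 FPKM in the mutant and 0.647, 1.31 and 1.80 FPKM in WT (log2 3.72 ± 0.45, adjusted p = 0.000679). DIC2, a mitochondrial dicarboxylate carrier, held 30.6, 38.0 and 35.2 FPKM in the mutant and 4.07, 6.41 and 7.13 FPKM in WT (log2 2.52 ± 0.23, adjusted p = 0.000155). Both were thus several-fold higher in every mutant library than in any WT library.

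A run of 5 neighbouring genes for proteins with a Toll-Interleukin-Resistance (TIR) domain, a signalling domain of many immune receptors, rose together on chromosome 1 between 27432195 and 27443856. The highest fold change was that of AT1G72920, at 2.32, 6.97 and 7.62 FPKM in the mutant and 0.176, 0.109 and 0 FPKM in WT (log2 5.71 ± 0.76, adjusted p = 0.00124). AT1G72940 held 7.29, 9.61 and 12.3 FPKM in the mutant and 1.9, 1.63 and 2.34 FPKM in WT (log2 2.27 ± 0.22, adjusted p = 0.000268). AT1G72910 (3.60), AT1G72900 (1.79) and TIR (2.05) rose too, and such close relatives can share reads. AT1G72900 no longer passed without WT replicate 1 or 3 or mutant replicate 2 or 3, and TIR no longer passed without WT replicate 1 or 2 or mutant replicate 2 or 3.

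The stretches before 3 of the genes that rose are shown because they carry short elements of stress-induced genes and, in ERF104, the same heat shock element cores as HSFA2. Capitals mark GAANNTTC and TTCNNGAA in ERF104, and TTGAC and the rapid stress response core CGCGT, also bound by calmodulin-binding factors, in EXL1 and DIC2. The ERF104 window is chr5:24767733-24767982 on the minus strand, that of EXL1 is chr1:12851733-12851982 and that of DIC2 is chr4:12686221-12686458, cut where a neighbouring exon ends, both on the plus strand.
ERF104: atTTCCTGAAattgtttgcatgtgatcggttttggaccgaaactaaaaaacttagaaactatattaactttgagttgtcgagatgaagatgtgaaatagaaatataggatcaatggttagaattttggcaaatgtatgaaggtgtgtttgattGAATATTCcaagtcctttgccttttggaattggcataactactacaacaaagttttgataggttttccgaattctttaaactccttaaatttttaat
EXL1: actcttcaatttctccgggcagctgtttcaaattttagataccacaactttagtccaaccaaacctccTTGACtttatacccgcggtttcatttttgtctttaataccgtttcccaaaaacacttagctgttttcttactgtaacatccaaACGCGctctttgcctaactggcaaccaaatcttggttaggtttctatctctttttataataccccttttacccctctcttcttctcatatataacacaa
DIC2: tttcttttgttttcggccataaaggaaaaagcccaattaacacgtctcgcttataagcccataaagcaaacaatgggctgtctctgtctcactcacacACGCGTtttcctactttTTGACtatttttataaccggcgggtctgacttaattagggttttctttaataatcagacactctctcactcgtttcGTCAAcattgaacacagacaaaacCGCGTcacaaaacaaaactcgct
ERF104 has GAANNTTC at 97 to 90 and TTCNNGAA at 248 to 241 bases before the start. DIC2 has CGCGT at 23 to 19 bases and, on both strands of the letters ACGCGT, at 140 to 135 bases before the start. EXL1 has TTGAC at 182 to 178 and CGCGT, read on the other strand, at 99 to 95 bases before the start.

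Over all promoters, 22922 windows of 250 bases from the 23385 tested nuclear genes were searched. GAANNTTC occurred in 20.3% of the 187 windows of genes that rose at least 2-fold, in 13.6% of the 184 windows of genes that fell that far and in 9.31% of all windows. TTCNNGAA occurred in 8.56%, 7.61% and 7.61% of the same windows. Over all genes that passed, GAANNTTC occurred in 11.6% of windows of rises and 9.36% of windows of falls, and TTCNNGAA in 7.31% and 7.86%, closer to the shares of all windows. CACGTG, which contains ACGTG, occurred in 3.21% of windows of rises, 9.78% of windows of falls and 7.08% of all. CGCGT occurred in 15.5%, 6.52% and 7.19%, TTGAC in 55.1%, 45.7% and 44.4%, and ACGTG in 20.9%, 27.7% and 23.2% of these sets. The dehydration core CCGAC (11.8%, 14.1% and 12.5%), the ERF core GCCGCC (3.21%, 4.35% and 1.87%) and the telobox AAACCCTA (3.74%, 3.26% and 4.24%) were counted in the same way. These shares describe letters and were not tested.

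Of 25 tested genes of abscisic acid (ABA) and dehydration, 10 fell, none rose and 15 did not pass, with a median log2 change of -0.35. HAI1, a protein phosphatase of the ABA response, held 34.5, 28.8 and 37.4 FPKM in the mutant and 84.6, 83.2 and 74.0 FPKM in WT (log2 -1.31 ± 0.10, adjusted p = 7.53e-05). ABF3, a bZIP factor that binds the ACGTG core, held 47.1, 44.8 and 53.5 FPKM in the mutant and 117, 97.2 and 78.7 FPKM in WT (log2 -1.06 ± 0.17, adjusted p = 0.00318). The phosphatases HAI2 (-1.45) and ABI1 (-0.74) fell too. Without WT replicate 1, 5 ABA genes fell, and without mutant replicate 2 or 3, 6 fell. NAC factors of stress and senescence followed in part, with 3 of 12 down and none up. ATAF1 held 16.3, 20.2 and 15.5 FPKM in the mutant and 55.3, 41.4 and 39.5 FPKM in WT (log2 -1.43 ± 0.17, adjusted p = 0.000556). NAP, which promotes senescence, held 0.512, 0.968 and 1.46 FPKM in the mutant and 8.26, 4.01 and 7.60 FPKM in WT (log2 -2.79 ± 0.52, adjusted p = 0.00667).

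Type-A response regulators, which are induced by cytokinin and dampen its signal, rose in 4 of 8 cases and fell in none. ARR5 held 8.59, 9.74 and 9.31 FPKM in the mutant and 2.99, 3.36 and 3.10 FPKM in WT (log2 1.51 ± 0.19, adjusted p = 0.000977). ARR7 held 31.9, 32.8 and 31.4 FPKM in the mutant and 13.9, 16.9 and 16.3 FPKM in WT (log2 0.99 ± 0.13, adjusted p = 0.0013). ARR4 held 29.4, 31.2 and 31.2 FPKM in the mutant and 18.5, 22.7 and 20 FPKM in WT (log2 0.55 ± 0.10, adjusted p = 0.00656). The mutant libraries of these genes were tightly grouped. In the other hormone lists, ACS6, an enzyme of ethylene synthesis, held 17.3, 26.8 and 27.0 FPKM in the mutant and 2.90, 3.92 and 3.77 FPKM in WT (log2 2.71 ± 0.20, adjusted p = 6.98e-05), and it was the only 1 of 11 ethylene synthesis genes to pass. Jasmonate synthesis genes AOC3 (log2 1.49) and OPCL1 (1.44) rose, among 7 of 28 jasmonate genes up and 1 down, the fall being lost without WT replicate 1 or mutant replicate 3. Without WT replicate 1 or 2 or mutant replicate 3 the jasmonate rises were 2, and without mutant replicate 2 they were 4. The immune receptor FLS2 (1.47) and the immune regulator EDS1 (0.63) rose among 15 salicylic acid and defence genes, of which 3 rose and none fell. Of 16 auxin genes, GH3.5, an auxin-conjugating enzyme, fell by 0.95 on the log2 scale and 1 other rose, a rise lost without WT replicate 1 or mutant replicate 3. With 1 up and 1 down, the auxin list lay near the shares of all tested genes, 4.36% up and 5.26% down.

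EXORDIUM genes, linked to growth under brassinosteroids and to carbon supply, moved both ways. EXL1 held 5.24, 12.6 and 11 FPKM in the mutant and 0.329, 0.360 and 0.788 FPKM in WT (log2 4.24 ± 0.76, adjusted p = 0.00571). EXL5 (1.70) and EXO (1.83) rose, and EXL2 fell, with 34.1, 43.4 and 48.9 FPKM in the mutant and 114, 87.7 and 92.6 FPKM in WT (log2 -1.26 ± 0.15, adjusted p = 0.000556). Over 14 cell wall genes, 5 rose and 2 fell, and without WT replicate 1 or 3 or mutant replicate 1 or 3 the counts were 3 and 1. In the phosphate starvation list 3 of 12 rose and none fell. SPX1, a phosphate sensor, held 66.5, 56.7 and 74.4 FPKM in the mutant and 19.7, 21.1 and 18.9 FPKM in WT (log2 1.68 ± 0.11, adjusted p = 3.89e-05), and G3PP1, a glycerol-3-phosphate transporter, rose by 1.33.

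Of 26 clock and thermomorphogenesis genes, the process in which ELF3 acts, 3 rose and 4 fell, where 4.36% of all tested genes rose and 5.26% fell. PRR5, a clock repressor, held 30.8, 32.3 and 36.2 FPKM in the mutant and 17.0, 15.0 and 17.8 FPKM in WT (log2 0.95 ± 0.10, adjusted p = 0.000357). FKF1, a blue-light receptor that degrades clock proteins, rose by 0.77 and CHE, a partner of the core clock, by 1.01 on the log2 scale. LNK1, a coactivator of evening genes, fell by 0.60, with 19.4, 19.9 and 17.3 FPKM in the mutant and 27.9, 29.2 and 26.2 FPKM in WT. The 3 rises stayed with each library left out, whereas the falls were 1 without WT replicate 1 or mutant replicate 1 and 2 without mutant replicate 2.

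Several smaller lists held falls. Of 10 genes of the ATG8 family, which build autophagosomes, and its cargo receptor NBR1, 4 fell and none rose, and all 10 had a negative sign. ATG8E held 5.82, 7.69 and 7.81 FPKM in the mutant and 17.1, 14.1 and 17.4 FPKM in WT (log2 -1.23 ± 0.14, adjusted p = 0.000556), and ATG8F (-0.73) and ATG8C (-0.63) fell too. Of 18 SR splicing factors 5 fell and 1 rose. RS2Z33 held 190, 164 and 185 FPKM in the mutant and 256, 258 and 227 FPKM in WT (log2 -0.50 ± 0.08, adjusted p = 0.00418), with falls also in SR34B (-0.49) and SR30 (-0.37), and 3 falls were left without WT replicate 1 or mutant replicate 2, while the rise was lost without WT replicate 3 or mutant replicate 2. ROS1, a DNA glycosylase that removes methylated cytosine, held 19.2, 18 and 19.8 FPKM in the mutant and 27.6, 24.3 and 27.7 FPKM in WT (log2 -0.52 ± 0.07, adjusted p = 0.00147), as 1 of 2 falls among 4 such genes, the other being lost without WT replicate 1 or mutant replicate 3. BAM9, a beta-amylase relative, fell by 0.87, among 3 falls and 1 rise of 20 sugar and starch genes. The 1 rise lay near the share of all tested genes that rose, 4.36%. The falls in that list were 1 without WT replicate 1 or 3 or mutant replicate 1, and the rise was lost whichever library was left out. Of 30 cell cycle and DNA replication genes, 6 rose and none fell, but only CDKB1;2, a mitotic cyclin-dependent kinase, still passed without WT replicate 1 or 3 or mutant replicate 1 or 3, and 10 rose without WT replicate 2.

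**Figure D3:**
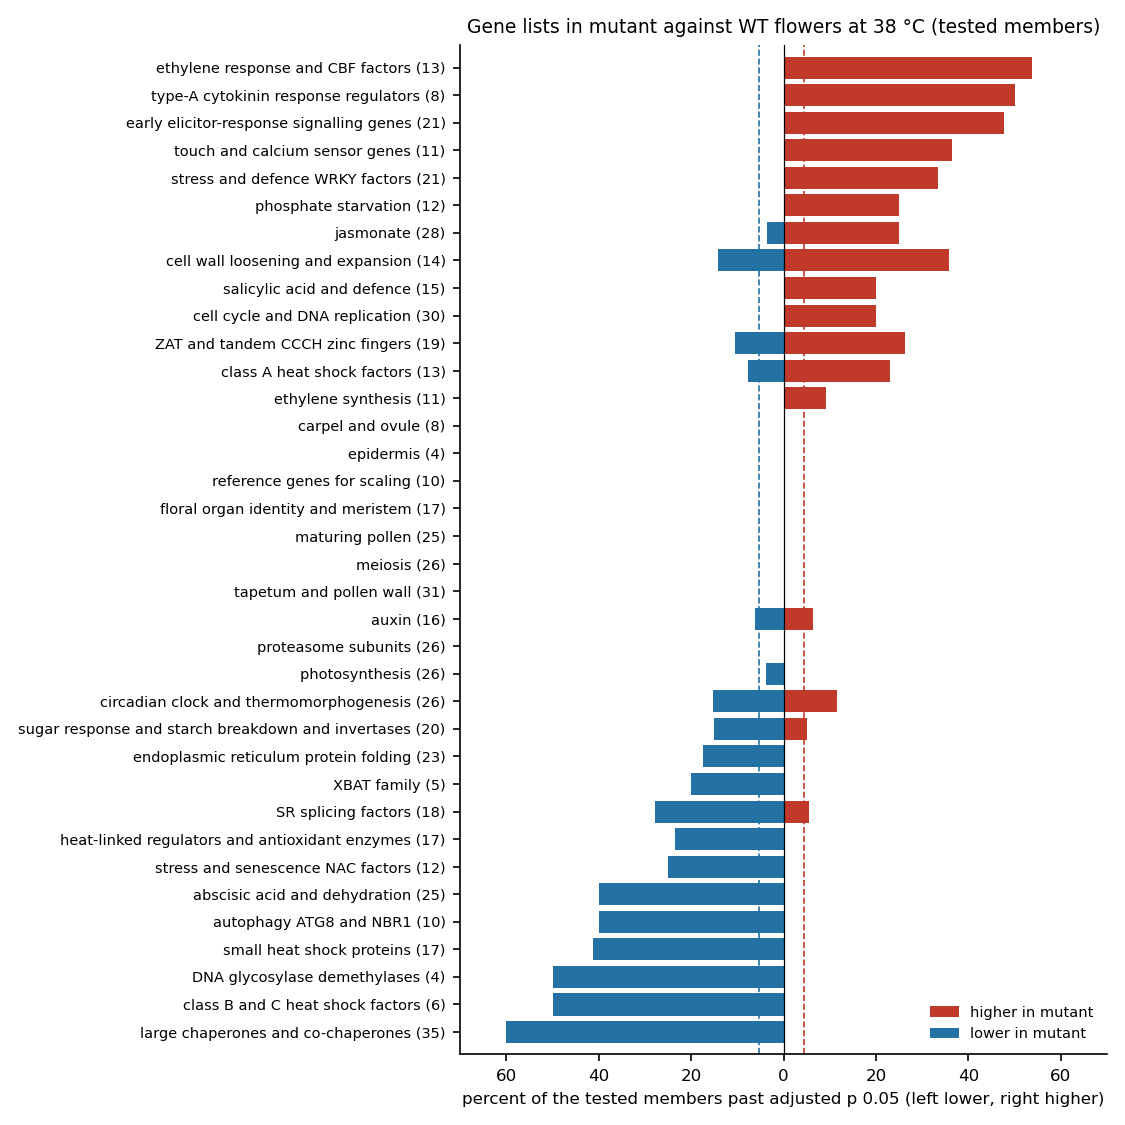
Percent of the tested members of each gene list that fell (blue, to the left) and rose (red, to the right) in mutant against WT flowers at 38 °C, with the number tested in brackets. Dashed lines mark the shares over all tested genes, 5.26% and 4.36%. The lists were chosen with earlier results of these data known. Chaperone, class B and C HSF, ABA and ATG8 lists extend left, the class A HSF list extends mainly right, ERF, cytokinin and elicitor lists extend right, and floral lists have no bar.

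Other genes with large falls lay outside these lists. DYL1, a dormancy-associated gene, held 43.2, 42.5 and 68.7 FPKM in the mutant and 176, 140 and 153 FPKM in WT (log2 -1.65 ± 0.23, adjusted p = 0.00147). AT2G41640, annotated as a glycosyltransferase of family 61, held 2.45, 4.21 and 3.84 FPKM in the mutant and 27.1, 31.4 and 28.2 FPKM in WT (log2 -3.08 ± 0.38, adjusted p = 0.000808). AT1G18330, annotated as homeodomain-like, held 2.61, 1.80 and 2.84 FPKM in the mutant and 19.4, 17.6 and 15.5 FPKM in WT (log2 -2.89 ± 0.27, adjusted p = 0.000175). The chloroplast thioredoxin ACHT4 (-1.55), the stress tolerance gene OXS3 (-1.66), the receptor-like protein RLP30 (-1.76) and the transcription factors MYB43 (-1.65) and HB40 (-1.90) fell as well. The tetraspanin TET9 (2.37) was among the rises.

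None of 26 proteasome subunits passed in edgeR, and their log2 changes lay between -0.19 and 0.22. None passed among 17 floral identity and meristem genes, 26 meiosis genes, 31 genes of tapetum and pollen wall, 25 of maturing pollen, 8 of carpel and ovule and 4 of epidermis. Across these lists, an unadjusted p below 0.05 was found for 3 proteasome, 1 floral identity, 1 meiosis, 2 tapetum, 0 pollen, 1 carpel and 0 epidermis genes. DESeq2 called 1 gene each of the proteasome, floral identity, tapetum and carpel lists, and limma on FPKM called none in any of the 7 lists. Summed pollen levels varied widely between libraries of the same genotype, with 1179, 4380 and 2103 FPKM in the mutant and 3032, 2083 and 3797 FPKM in WT. The tapetum sums were 612, 768 and 794 FPKM in the mutant and 840, 620 and 840 FPKM in WT. All 25 pollen markers were detected in each of the 6 libraries, and 3 of 25 had a positive sign. Neither sum separated the genotypes, and their part in the results above was not tested. Of 26 photosynthesis genes 1 fell, the light-harvesting gene LHCB4.2 (-0.77), and it no longer passed without WT replicate 1 or 3 or mutant replicate 1 or 3. None of 10 reference genes passed in edgeR, 2 had an unadjusted p below 0.05, DESeq2 called 2 and limma 1, and their log2 changes ran from -0.33 to 0.42.

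Transcripts assigned to the mitochondrial genome leaned lower in the mutant. Summed over 145 genes they reached 1272, 989 and 903 FPKM in the mutant and 2078, 2209 and 1602 FPKM in WT, without overlap. Of 111 tested mitochondrial genes 18 fell and none rose, 108 had a negative sign, and the median log2 change was -1.12. At 22 °C the sums overlapped, with 639, 955 and 434 FPKM in the mutant and 416, 637 and 531 FPKM in WT, and the median log2 change was 0.36. The falls were 5 without WT replicate 1 or mutant replicate 3, 9 without WT replicate 2, 11 without mutant replicate 1 and 8 without mutant replicate 2, and limma on FPKM called 43 lower with a pseudocount of 1 and 23 with 0.1. Chloroplast genes did not show this, with 1533, 1131 and 904 FPKM in the mutant and 1057, 801 and 999 FPKM in WT over 132 genes, and none of 89 passed in edgeR, with 3 at an unadjusted p below 0.05 2 called by DESeq2, and 2 and 1 by limma with pseudocounts of 1 and 0.1. The libraries were selected for polyadenylated RNA, which organelle transcripts mostly lack, and the part of that selection in these sums was not tested.

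**Figure D4:**
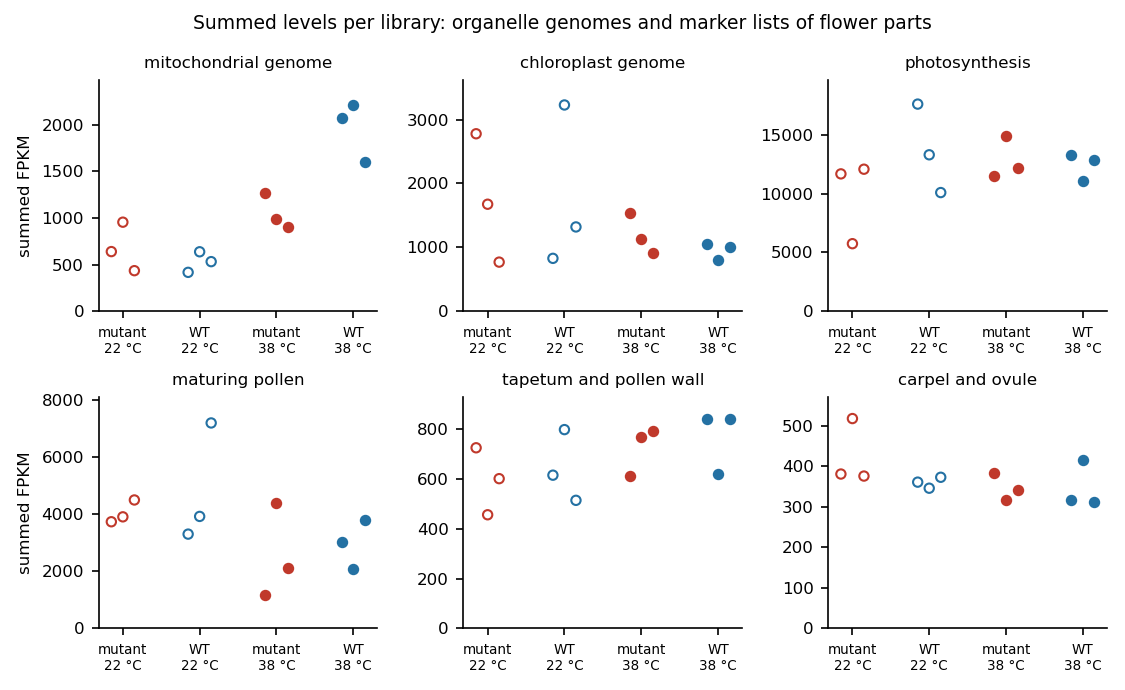
Summed FPKM per library for genes of the organelle genomes and for 4 marker lists, in mutant and WT flowers at 22 °C (open circles) and 38 °C (filled circles). At 38 °C the mitochondrial sums of the mutant, 903 to 1272, lie below those of WT, 1602 to 2209, whereas pollen sums overlap.

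Annotation terms in the deposited table overlap the lists in many genes, and only some of the terms counted are given. Among 164 tested genes annotated to the response to heat, 40 fell (24.4%) and 9 rose (5.49%). Of 123 annotated to the response to chitin, 35 rose (28.5%) and 4 fell (3.25%). Under the response to ethylene, 4 of 91 rose (4.4%) and 7 fell (7.69%), where 4.36% and 5.26% of all tested genes did. Under the defense response, 15 of 190 rose (7.89%) and 11 fell (5.79%). Among 191 annotated to the response to wounding, 27 rose (14.1%) and 7 fell (3.66%). There were 13 rises and 3 falls without WT replicate 1, 14 and 3 without mutant replicate 3 and 4 falls without mutant replicate 1. For the response to hydrogen peroxide, 12 of 56 fell (21.4%) and 1 rose (1.79%). Protein folding had 22 of 135 down (16.3%) and none up. The response to water deprivation had 34 of 291 down (11.7%) and 18 up (6.19%). Of 318 structural constituents of the ribosome, 6 rose (1.89%) and 5 fell (1.57%), against 4.36% and 5.26% of all tested genes. Without mutant replicate 3 the falls under the response to heat were 26 and those under protein folding 11, and without WT replicate 1 those under protein folding were 13. For water deprivation they were 19 without WT replicate 1 and 20 without mutant replicate 3, with 11 rises in both cases.

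At 22 °C the same genotypes differed in 45 genes (0.191% of tested genes), 38 of them higher in the mutant. Of the 45, 42 also passed at 38 °C, which is 93.3% of the changes at 22 °C and 1.85% of those at 38 °C, and 40 had the same direction. The 22 °C and 38 °C comparisons share no library. Both tests use the same spread per gene, estimated over all 12 libraries, so their calls are not independent. Among the 193 rises of at least 2-fold the median log2 change was 1.68 at 38 °C and 0.53 at 22 °C, and 82.4% had the same sign at 22 °C. Among the 212 falls of at least 2-fold the medians were -1.37 and -0.08, and 54.7% had the same sign, close to the 52.2% of all tested genes. Across all tested genes the 2 fold changes correlated at Pearson r = 0.14, and across genes that passed at 38 °C at r = 0.59; genes are not independent replicates.

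All 7 ERFs that rose in heat were also higher at 22 °C. ERF104 held 25.1, 14.8 and 27.6 FPKM in the mutant and 0.431, 0.827 and 0.752 FPKM in WT at 22 °C (log2 5.01, adjusted p = 0.000815), close to its difference at 38 °C. WRKY70 held 40.3, 37.8 and 39.9 FPKM in the mutant and 8.12, 6.49 and 4.98 FPKM in WT at 22 °C (log2 2.56, adjusted p = 0.00061). TCH4, SZF1, ACS6 and AT4G27280 were higher at 22 °C too, by 3.65, 2.21, 2.06 and 3.23 on the log2 scale. All of these passed at 22 °C as well. AT2G41640 was lower at both temperatures, with 1.64, 0.466 and 2.04 FPKM in the mutant and 25.8, 25.8 and 28.4 FPKM in WT at 22 °C (log2 -4.29, adjusted p = 0.000961), and so was ROS1 (-0.50 at 22 °C).

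For several heat shock genes the mutant effect itself differed between temperatures. HSFB2B held 7.36, 8.29 and 8.70 FPKM in the mutant and 9.24, 10.2 and 7.27 FPKM in WT at 22 °C, where the groups overlapped (log2 -0.16, adjusted p = 0.807). The mutant effect at 38 °C minus that at 22 °C was -2.38 ± 0.18 (SE, adjusted p = 0.000312). DREB2A held 1.88, 1.82 and 1.97 FPKM in the mutant and 2.05, 1.70 and 1.80 FPKM in WT at 22 °C, with a difference between temperatures of -2.17 (adjusted p = 0.0115). For HSFB2A that difference was -2.16 (adjusted p = 0.0043), for HSP101 -1.09 (adjusted p = 0.0172) and for BAG6 -1.47 (adjusted p = 0.0086). HSP101 held 6.71, 7.83 and 6 FPKM in the mutant and 9.89, 9.75 and 9.1 FPKM in WT at 22 °C. Its groups thus did not overlap at 22 °C, although that change did not pass in edgeR (log2 -0.52, adjusted p = 0.296). HSFA2 stood at 2.72, 4.36 and 2.69 FPKM in the mutant and 6.34, 6.35 and 6.12 FPKM in WT at 22 °C, and its difference between temperatures of -1.15 did not pass (adjusted p = 0.0814).

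In all, the mutant effect differed between temperatures in 374 genes (1.59% of tested genes), 96 with a positive and 278 with a negative difference. Of the genes that fell at 38 °C 22.2% were among them, and of those that rose 8.56%. The difference of effects was positive in 4 of the 8 type-A regulators, with ARR7 at 13.7, 18.9 and 19.2 FPKM in the mutant and 24.2, 27.9 and 23.3 FPKM in WT at 22 °C, so that its sign turned between temperatures. ARR4 (log2 -0.73, adjusted p = 0.0125) and CDKB1;2 (log2 -1.59, adjusted p = 0.00061) were lower in the mutant at 22 °C and higher at 38 °C, the 2 genes that passed in opposite directions. CDKB1;2 held 18.8, 15.6 and 15.5 FPKM in the mutant and 9.19, 11.6 and 8.73 FPKM in WT at 38 °C, and 5.20, 5.81 and 5.91 FPKM in the mutant and 16.3, 16.3 and 17.3 FPKM in WT at 22 °C. The count of such genes fell to between 75 and 241 with 1 of the 6 heated libraries left out, with 75 without WT replicate 1, 126 without WT replicate 2, 241 without WT replicate 3, 160 without mutant replicate 1, 120 without mutant replicate 2 and 87 without mutant replicate 3.

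**Figure D5:**
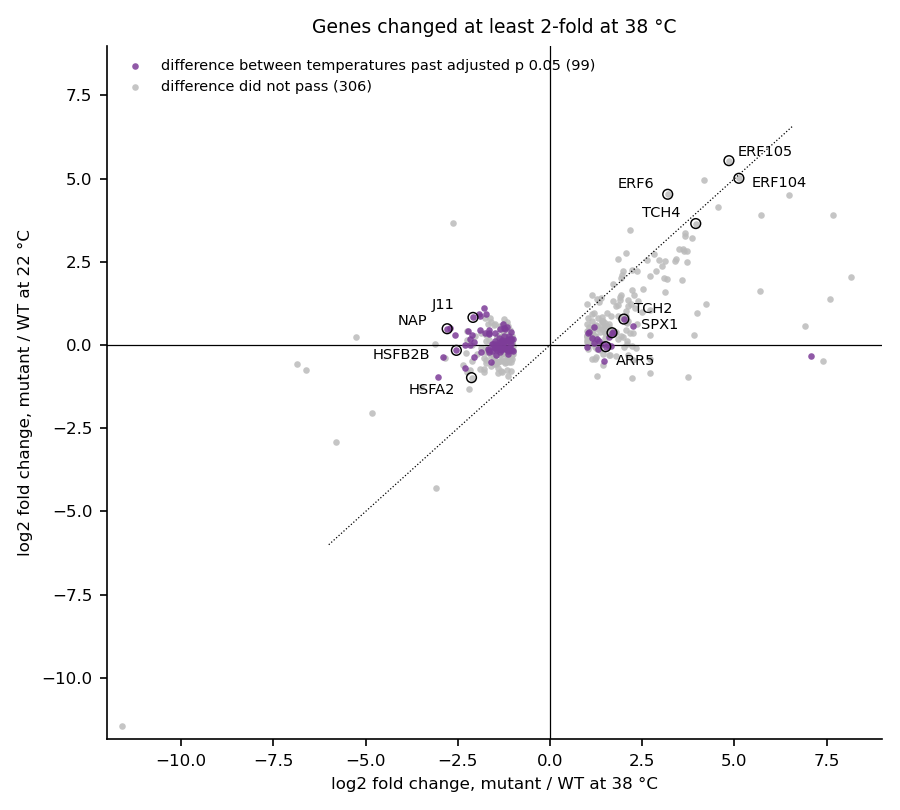
Log2 fold change, mutant over WT, at 38 °C (x axis) and 22 °C (y axis) of the 405 genes that changed at least 2-fold at 38 °C; the dotted line marks equal changes and circles mark labelled genes. Purple points are the 99 genes whose effect differed between temperatures at an adjusted p below 0.05. ERF104, ERF105 and TCH4 lie near the line, and HSFB2B and NAP lie near 0 on the y axis.

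The share of tested genes that passed at 38 °C ran from 9.06% on chromosome 3 to 10.1% on chromosome 5 among the nuclear chromosomes, and was 16.2% for the mitochondrial genome and 0% for the chloroplast genome. Within 100 kb of XBAT31, 5 of 27 genes passed (18.5%), XBAT31 itself not counted, with 4 up and 1 down. Within 500 kb, again without XBAT31, 12 of 197 rose and 9 fell, so that 10.7% passed. The share was 9.54% within 1 Mb and 9.2% within 2 Mb. From 500 kb outward these shares lay near the 9.62% of all tested genes. The neighbours that changed included HIS4, a histone H4 gene (log2 0.68), and CXIP4 (-0.60), both close to XBAT31. The 1 Mb window with the highest share, 17.3%, lay on chromosome 2 from 3000001 to 4000000, and it includes a run of 5 neighbouring falls. In it 19 genes fell and 0 rose, the direction also seen for mitochondrial genes. Whether genes of this window share reads with those of the mitochondrial genome was not tested, so it may not be a separate result.

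Counts of overlapping genes need care. AT5G01710 and AT5G01712 are listed with the same span, 263511 to 265633 on chromosome 5, minus strand. AT5G01710 held 0, 0.00207 and 0.00165 FPKM in the mutant and 31, 0.000388 and 35.4 FPKM in WT. AT5G01712 held 51.6, 59.5 and 60.7 FPKM in the mutant and 0.00126, 34.5 and 0.000918 FPKM in WT. In each library 1 of the 2 genes held nearly all of the signal, and the fall fitted for AT5G01710 was 1 of the 10 changes whose groups overlap. This pair was picked after its values were seen. Of the 110 genes named in the text, 16 overlap another gene of the deposited table.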

How the data were processed

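Polyadenylated RNA of Arabidopsis flowers was sequenced in 12 libraries, 3 for each combination of genotype and temperature. Reads were trimmed with cutadapt 1.9, aligned with HISAT2 2.0.4 to TAIR10 and assembled and quantified with StringTie 1.3.4d, per the submitters' processing notes. The deposited expected counts per gene were rounded to whole numbers; of counts up to 20, 47.2% were multiples of 4, so their scale is not that of single reads, and dividing them by 4 was tried. The deposited FPKM values were used for levels. Which strand setting was used for counting is not stated in the labels.

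Genes were filtered with filterByExpr (minimum count 10), which left 23585 of 27715, and scaled by TMM. All 12 libraries were fitted with 4 group means in edgeR 4.0.16 (R 4.3.3, quasi-likelihood test, Benjamini-Hochberg adjustment, 8 residual degrees of freedom). Contrasts were mutant against WT at each temperature and their difference. The biological coefficient of variation was 25.1%. Alternatives included DESeq2 1.42.0 and limma 3.58.1 on log2(FPKM + 1).

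Genes were named by rank of change, smallest p within lists, and position near XBAT31. Members and lists were chosen with earlier results of these data known. Of 660 list entries in 37 lists, 652 were used, and 3 kept their identifier although RefSeq gives their symbol to another gene. Symbols and promoter sequences came from RefSeq (26110 genes matched by locus, 9885 with a symbol). The seed storage list had no tested member. Libraries held 44983198 to 63088433 counts, and precision rests on the spread between replicates as well as on depth.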

Additional observations from a re-analysis of the deposited data

Results flagged for a closer look

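The genes below drew attention because the mutant effect (log2, mutant over WT) at 38 °C differed from that at 22 °C by edgeR's test of the difference itself, and each value is the effect at 38 °C minus that at 22 °C. Among heat shock, chaperone and endoplasmic reticulum genes the difference was negative for MBF1C (-2.06), HSFB2B (-2.38), HSFB2A (-2.16), DREB2A (-2.17), HSP101 (-1.09), BAG6 (-1.47), HSA32 (-0.84), HSP70T-2 (-1.71), J11 (-2.92), BZIP28 (-0.69) and ERDJ3A (-1.14). Among hormone, senescence, autophagy and other genes it was negative for NAP (-3.28), OZF2 (-1.28), HAI1 (-1.47), ABF3 (-1.46), ATAF1 (-1.32), GH3.5 (-0.98), EXL2 (-1.78), ATG8E (-1.12), ATG8C (-0.73), BAM9 (-1.48), DYL1 (-2.11), AT1G18330 (-2.53), ACHT4 (-1.60), OXS3 (-2.04), RLP30 (-2.11) and CXIP4 (-0.54). It was positive for ARR7 (1.56), TCH2 (1.22), ARR5 (1.55), ARR4 (1.27), FLS2 (1.94), EXL5 (1.31), SPX1 (1.32), G3PP1 (1.19), PRR5 (0.75), FKF1 (0.67) and CDKB1;2 (2.31). For scale, the difference passed in 1.59% of tested genes, but in 363 of the 2269 genes that passed at 38 °C. In edgeR's test of the difference, adjusted p ran from 0.000312 for HSFB2B and CDKB1;2 up to 0.0477 for ATG8C. MBF1C (0.0443), OXS3 (0.0462), GH3.5 (0.0466) and NAP (0.0473) also lay near the threshold. The count of all such genes, 374, was 75 without WT replicate 1 and 31 without mutant replicate 1 and WT replicate 2 together. Whether each listed difference stays in those fits was not tested. Of the 110 genes named in the text, 105 passed at 38 °C. The effect at 38 °C is part of the difference, so these genes were not picked independently of it. At 22 °C, J11 held 70.8, 37.6 and 30.5 FPKM in the mutant and 29.6, 25.5 and 22 FPKM in WT, with mutant replicate 1 the highest. NAP held 7.18, 2.33 and 2.32 FPKM in the mutant and 2.85, 3.11 and 2.35 FPKM in WT at 22 °C, again with mutant replicate 1 the highest. MBF1C held 12.1, 9.92 and 8.28 FPKM in the mutant and 22.4, 16.9 and 18.8 FPKM in WT at 22 °C, so its groups did not overlap there either.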

How the results depend on the processing

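Of the 18 alternatives tried, none turned the direction of a named gene that passed. DESeq2 called 4048 genes at 38 °C (1803 up, 2245 down) and 1860 differences between temperatures, against 2269 (1028 up, 1241 down) and 374 in the edgeR fit, and 2266 of the edgeR calls were among those of DESeq2. Testing for a change beyond 2-fold left 40 genes (25 up, 15 down), 4 differences between temperatures and 17 list genes of 150, and XBAT31 itself no longer passed (log2 -1.15, adjusted p = 1). Scaling on 10 reference genes shifted the median of all genes by -0.10 and gave 463 rises and 1895 falls. Leaving out mutant replicate 1 and WT replicate 2, which stood apart on the second principal component, left 1119 genes (529 up, 590 down) and 31 differences between temperatures. With 1 heated library left out, totals ran from 1016 to 1746, rises from 427 to 875, falls from 589 to 988, differences between temperatures from 75 to 241 and list genes from 96 to 137. The cause of these shifts was not tested, beyond the smaller number of libraries in the fits that leave some out. Deviations of same-numbered mutant and WT libraries at 38 °C correlated at -0.12, -0.28 and -0.02, and those of other pairs at -0.15 to 0.23. With only 3 libraries per group these values are tied to each other, so they cannot decide whether the numbers mark pairs. A replicate block gave 1767 genes and 128 differences between temperatures. Genes with few counts are limited by depth, and 4130 genes were too low to test.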
